A study of Mus musculus with 18 samples.

Results

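The genes described here are 10 astrocyte transcripts, *Agt*, *Etnppl*, *Ndrg2*, *Aldh1l1*, *Acsbg1*, *Fgfr3*, *Gpr37l1*, *Htra1*, *Mlc1* and *Slc7a10*, out of 35823 gene names in the transcriptome of sorted brain cells. These 10 genes were chosen by name, with their KIN-versus-WT values in the astrocyte fraction and their astrocyte enrichment already known, so their values in that contrast and their order across fractions are given as a description and carry no test. Astrocytes, microglia and neurons were isolated from whole brains of homozygous *Atxn2*-CAG100-KIN mice, where a CAG expansion was knocked into the endogenous *Atxn2* gene as a model of spinocerebellar ataxia type 2, and from WT littermates of the same sex. All mice were on a C57BL/6 background, 10 months old and untreated, and each fraction and genotype had 3 libraries, 18 in all. The 3 fractions came one after another from the same brains with magnetic beads, microglia by CD11b, astrocytes by ACSA-2 (an epitope of ATP1B2) and neurons by removal of labelled non-neuronal cells and of CD31-positive cells, so fractions of one brain are not independent. The pairs of mice included both sexes, and the labels do not say which libraries belong to which sex.

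Astrocytes supply neurons with metabolites, clear transmitters and ions, and make a defined set of enzymes and transporters for this work. *Agt* encodes angiotensinogen, the precursor of the angiotensin peptides, which in the brain is made mainly by astrocytes. *Aldh1l1* (10-formyltetrahydrofolate dehydrogenase) serves folate metabolism, *Etnppl* (ethanolamine-phosphate phospho-lyase) breaks down an intermediate of phospholipid synthesis, *Acsbg1* activates long-chain fatty acids to their coenzyme A esters, and *Slc7a10* (Asc-1) carries small neutral amino acids such as serine and glycine. *Fgfr3* is a receptor for fibroblast growth factors, *Gpr37l1* an orphan receptor for which prosaposin-derived peptides have been proposed as ligands, *Mlc1* a membrane protein of astrocyte endfeet that is mutated in a leukoencephalopathy with cysts, *Htra1* a secreted serine protease that acts on matrix and TGF-beta signalling, and *Ndrg2* a stress- and differentiation-associated member of the NDRG family.

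In the mm39 (GRCm39) annotation of GENCODE vM39 all of these genes are protein-coding. *Agt* lies on chr8:125279301-125296716 (minus strand), *Etnppl* on chr3:130411097-130431441 (plus), *Ndrg2* on chr14:52142588-52158469 (minus), *Aldh1l1* on chr6:90463409-90577185 (plus) and *Acsbg1* on chr9:54510840-54569197 (minus). *Fgfr3* lies on chr5:33879018-33894412 (plus), *Gpr37l1* on chr1:135087972-135095419 (minus), *Htra1* on chr7:130537518-130587390 (plus), *Mlc1* on chr15:88840084-88863356 (minus) and *Slc7a10* on chr7:34885666-34906995 (plus). No pair of them shares a locus.

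The promoters of 3 of the genes are shown because *Agt* and *Etnppl* had the lowest KIN-to-WT ratios of the 10 and *Mlc1* the highest. Each runs from 250 bases before to 50 bases after the annotated start, 5′ to 3′ on the strand of the gene, in RefSeq on GRCm38.p6, an older build than that of the gene coordinates. All 10 genes had an entry, with 14 promoters between them. Capitals mark TATAAA and TTCNNNGAA in *Agt* and GGGCGG in *Etnppl*, and the *Mlc1* window held none of the 5 motifs searched.
Agt, chr8:124569657-124569956, minus strand: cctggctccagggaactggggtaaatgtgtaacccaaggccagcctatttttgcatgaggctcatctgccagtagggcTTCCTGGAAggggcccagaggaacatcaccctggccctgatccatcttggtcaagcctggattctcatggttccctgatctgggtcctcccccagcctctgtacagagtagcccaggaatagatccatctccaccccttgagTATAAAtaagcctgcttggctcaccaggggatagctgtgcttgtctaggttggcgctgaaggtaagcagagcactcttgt
Etnppl, chr3:130617198-130617497, plus strand, the more upstream of 2 annotated starts: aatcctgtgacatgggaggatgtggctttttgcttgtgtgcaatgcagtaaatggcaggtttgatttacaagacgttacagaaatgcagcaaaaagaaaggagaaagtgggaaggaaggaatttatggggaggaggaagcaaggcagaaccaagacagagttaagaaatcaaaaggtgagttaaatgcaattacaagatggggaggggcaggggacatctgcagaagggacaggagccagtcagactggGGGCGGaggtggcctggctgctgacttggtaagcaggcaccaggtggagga
Mlc1, chr15:88978504-88978803, minus strand: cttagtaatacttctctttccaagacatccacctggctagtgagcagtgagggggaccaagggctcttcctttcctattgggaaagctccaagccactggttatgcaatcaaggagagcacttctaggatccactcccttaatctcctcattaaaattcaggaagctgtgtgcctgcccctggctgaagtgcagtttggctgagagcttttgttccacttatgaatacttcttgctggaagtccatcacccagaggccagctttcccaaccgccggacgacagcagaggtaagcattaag

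Both strands were searched for the TATA box letters TATAAA, the STAT-type letters TTCNNNGAA, the GC box GGGCGG, the glucocorticoid half-site AGAACA and the E-box CACGTG, and no matches overlapped in the sequences shown. TATAAA stood in 13.6% of all 32851 promoters of that length and in those of 2 of the genes, *Agt*, 30 bases before the start, and *Ndrg2*, 29 bases before one of its starts. TTCNNNGAA was held by 8.3% of all promoters and by 2 of the 14, those of *Agt* and *Acsbg1*. GGGCGG was held by 35.7% of all promoters and by 10 of the 14, some of which overlap each other. These 10 belong to 6 of the genes, *Aldh1l1*, *Etnppl*, *Fgfr3*, *Htra1*, *Ndrg2* and *Slc7a10*. AGAACA, in 19.0% of all promoters, and CACGTG, in 7.15%, were in none of the 14. These are matches of letters only.

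Total counts ran from 2118317 to 2829969 in the 6 astrocyte libraries, from 2334633 to 3296398 in the microglia libraries and from 761481 to 2017932 in the neuron libraries, and the 10 most abundant transcript entries, none of them of the genes described here, took 75.8% to 85.4% of each. Levels are given as CPM, counts relative to a library total scaled by TMM and expressed per 1e6, and a count of 3 or fewer in a library is treated as the floor of detection. *Atxn2* itself had 19 to 37 counts per astrocyte library, with a log2 fold change of -0.24 (SE 0.27, edgeR quasi-likelihood adjusted p = 0.631) that does not test the repeat length. Against the labels, the summed level of 8 microglia markers was 710.3 to 1089 CPM in microglia and at most 15.4 CPM elsewhere, and that of 16 other astrocyte markers was 803.8 to 1804 CPM in astrocytes. The summed level of 12 neuron markers was 111.7 to 198.6 CPM in the neuronal fraction but also 38.4 to 162.8 CPM in the astrocyte fraction, so the 2 ranges overlapped. Ependymal and choroid plexus markers summed to 154.3 to 467.7 CPM in the neuronal fraction, higher than its neuron markers in 5 of the 6 libraries, so levels there are those of a fraction and not of neurons alone. Neuron WT replicate 2 stood apart, with 282.7 CPM of oligodendrocyte markers against 26.6 to 48.5 CPM in the other 5 neuron libraries and 86 CPM of astrocyte markers against 26.6 to 43.6 CPM. In such bulk fractions fewer cells of a type and less RNA per cell cannot be told apart.

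All 10 genes were astrocyte transcripts by level. In 9 of them every astrocyte library, WT or KIN, lay above every microglia and neuron library. The exception was *Etnppl*, whose lowest KIN astrocyte library had 0.383 CPM while the highest library of the other fractions had 1.02 CPM. Summed over the 10 genes, the level was 470.2 to 679.3 CPM in WT astrocytes and 269.1 to 288.9 CPM in KIN astrocytes, against 3.13 to 9.5 CPM in microglia and 5.32 to 22.5 CPM in neurons.

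**Figure D1:**
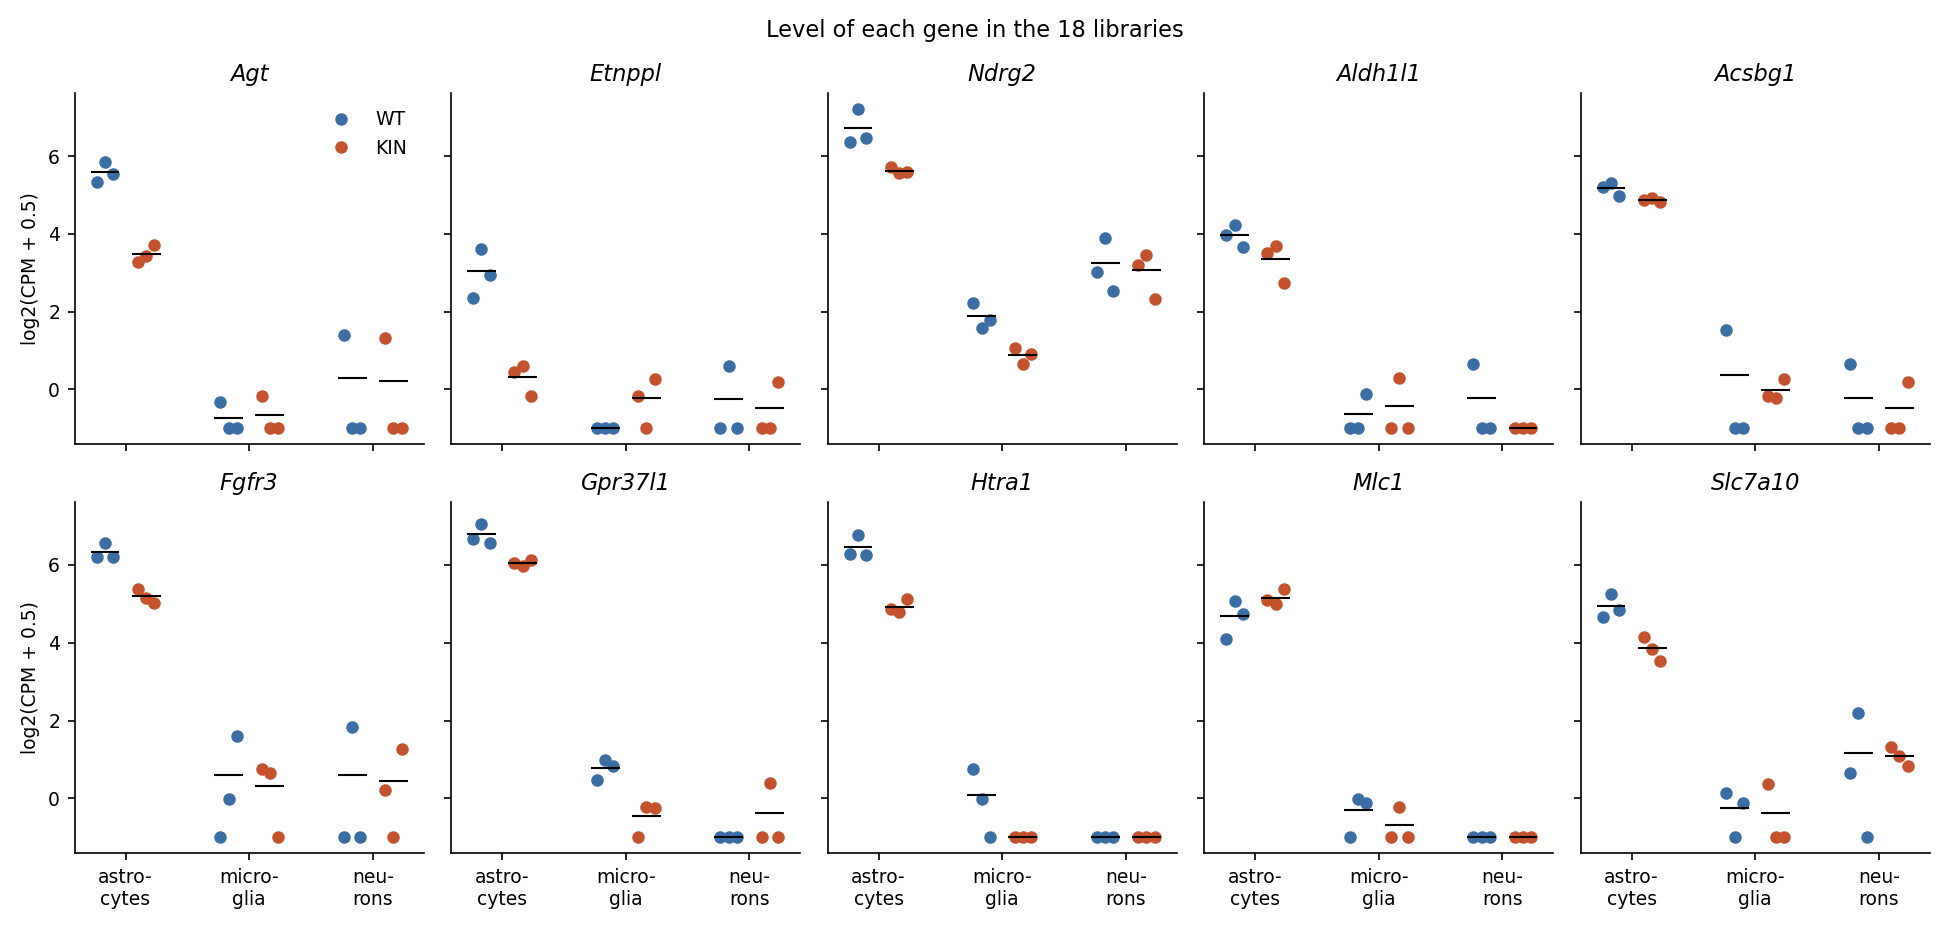
Level of each gene in every library, as log2(CPM + 0.5) on a shared vertical axis, by fraction and genotype; points are the 3 libraries of a group and the horizontal bar is their mean. The KIN astrocyte points lie below the WT points in 8 genes and overlap them in Aldh1l1 and Mlc1, and outside the astrocyte fraction only Ndrg2 was above 5 CPM in any library.

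*Agt* had at most 3 counts in each of the 12 microglia and neuron libraries and none in 8 of them. Its mean level in WT astrocytes was therefore at least 39.2-fold higher than the level of 3 counts per library in WT microglia and at least 13.9-fold higher than that in WT neurons. For KIN astrocytes the same bounds were 9.7-fold and 5.05-fold. *Mlc1* was likewise bounded, at least 20.8-fold above WT microglia and at least 32-fold above KIN microglia. In the neuronal fraction *Mlc1* and *Htra1* had 0 counts in all 6 libraries. A level of 3 counts per library there averages 3.43 CPM in WT and 2.11 CPM in KIN neurons.

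A few libraries outside the astrocyte fraction were above the floor. *Acsbg1* reached 8 counts in microglia WT replicate 1, *Fgfr3* 6 counts in microglia WT replicate 3, *Htra1* 4 counts in microglia WT replicate 1 and *Slc7a10* 4 counts in neurons WT replicate 2, each in a single library. *Gpr37l1*, *Aldh1l1*, *Etnppl*, *Agt* and *Mlc1* never did. The order of the 6 groups was astrocytes WT, then astrocytes KIN, then the other 4 groups in 9 of the 10 genes, with *Mlc1* having astrocytes KIN first. Below the astrocyte groups the neighbours in that order mostly overlapped, and single counts set the order there.

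*Ndrg2* was the exception, with counts in all 18 libraries. Its mean level was 105.5 CPM in WT and 48.8 CPM in KIN astrocytes, 9.07 and 7.88 CPM in WT and KIN neurons, and 3.2 and 1.35 CPM in WT and KIN microglia. The WT astrocyte mean was 33-fold that of WT microglia and 11.6-fold that of WT neurons. The neuron groups overlapped each other, while the remaining neighbours in the order did not.

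The comparison of KIN with WT within the astrocyte fraction asks whether the mutation goes with a change in these astrocyte transcripts. All 10 genes passed the filter of 5 counts in 2 libraries, but the direction of a gene chosen for this contrast is not evidence of its own. A gene was called where its edgeR adjusted p did not exceed 0.05 and its level differed by 1 or more on the log2 scale, and by this rule 6 of the 10 were lower in KIN and 0 were higher. Of all 11751 genes tested 6.42% were called lower and 2.43% higher, and since the members were selected on this contrast nothing is read from the difference. The median log2 fold change of the 10 was -1.11, also with *Etnppl* at its detection bound, against 0.0 for all genes tested. The 3 KIN libraries were all below the 3 WT libraries in 8 of the 10, as in 14.1% of all genes tested.

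**Figure D2:**
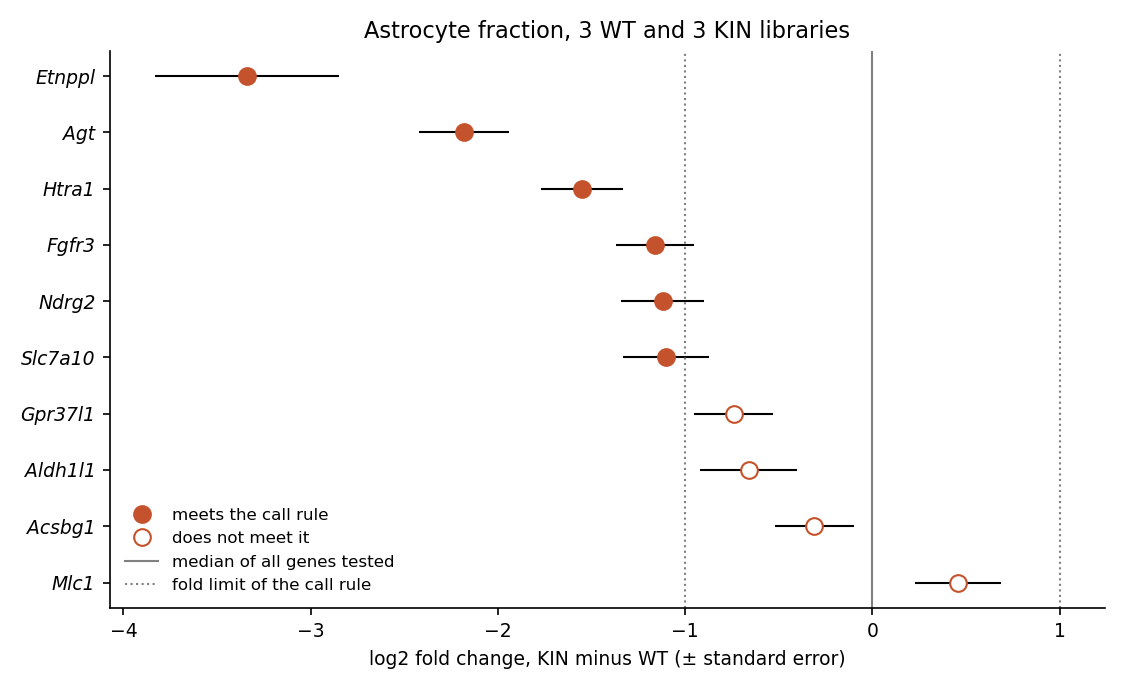
Log2 fold change of each gene in the astrocyte fraction, KIN minus WT, with the standard error of the edgeR fit; filled points meet the call rule, the solid line is the median of all genes tested and the dotted lines are the fold limit. Etnppl lies at -3.34 and Agt at -2.18, Mlc1 at 0.46, and the other 7 genes between -1.55 and -0.31.

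Among the enzymes and secreted precursors *Agt* stood at 39.5, 57.1 and 46.3 CPM in WT replicates 1 to 3 and at 9.21, 10.2 and 12.6 CPM in KIN replicates 1 to 3. The raw counts behind these were 112, 176 and 148 in WT and 32, 20 and 33 in KIN. The groups were far apart, with a mean of 47.6 ± 8.9 CPM (SD, n = 3) in WT and 10.7 ± 1.75 CPM (SD, n = 3) in KIN, which left 22.4% of the WT level. The log2 fold change was -2.18 (SE 0.24), and it met the call rule in every alternative tried.

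*Etnppl* was the least abundant of the 10 in counts, with 13, 36 and 23 counts in WT and 3, 2 and 1 in KIN. In CPM these were 4.58, 11.7 and 7.2 against 0.863, 1.02 and 0.383. All 3 KIN libraries were at the floor, so the mean WT level of 7.82 ± 3.59 CPM (SD, n = 3) was at least 6.62-fold above the level that 3 counts give in the KIN libraries. The fitted log2 fold change of -3.34 (SE 0.49) depends on the prior count and is no bound.

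*Aldh1l1*, widely used to mark astrocytes, had 15.2, 18.2 and 12.2 CPM in WT and 10.9, 12.3 and 6.12 CPM in KIN. The highest KIN library was marginally above the lowest WT library, so the groups overlapped. Its log2 fold change was -0.66 (SE 0.26), and the gene did not meet the call rule.

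*Acsbg1* had the smallest KIN-to-WT difference of the 9 genes that were lower. It stood at 36.3, 39.3 and 30.7 CPM in WT and at 28.8, 29.7 and 27.9 CPM in KIN. KIN libraries lay just below the lowest WT library, the KIN mean was 81.3% of the WT mean, and the log2 fold change of -0.31 (SE 0.21) was outside the call rule.

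*Htra1*, the secreted protease, was at 76.8, 108.1 and 76 CPM in WT and at 28.5, 27.1 and 34.1 CPM in KIN. The groups were well apart, and the KIN mean was 34.4% of the WT mean. The log2 fold change was -1.55 (SE 0.22).

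The transporter *Slc7a10* was at 25, 37.3 and 28.2 CPM in WT and at 17.3, 13.8 and 11.1 CPM in KIN. The groups did not overlap and the KIN mean was 46.6% of the WT mean, with a log2 fold change of -1.10 (SE 0.23). It met the call rule, close to the fold limit, and no longer did so without WT replicate 2 (-0.92), without KIN replicate 3 (-0.95) or on its most abundant transcript alone (-0.95).

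Of the receptors, *Fgfr3* stood at 73.3, 94.8 and 72.6 CPM in WT and at 41.4, 34.8 and 31.8 CPM in KIN. The KIN mean was 44.9% of the WT mean, without overlap, and the log2 fold change was -1.16 (SE 0.21), or -0.97 and outside the call rule on its most abundant transcript alone. *Gpr37l1* was at 101.2, 133.4 and 94.5 CPM in WT and at 66.2, 62.4 and 69.6 CPM in KIN. Its groups were also apart, but with 60.2% of the WT level left the log2 fold change of -0.74 (SE 0.21) stayed within the fold limit.

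*Ndrg2* stood at 81.8, 146.4 and 88.3 CPM in WT and at 52.1, 46.6 and 47.8 CPM in KIN. WT replicate 2 was high and set much of the WT spread (105.5 ± 35.6 CPM, SD, n = 3). The log2 fold change was -1.12 (SE 0.22) with all libraries and -0.82 without WT replicate 2, where the gene no longer met the call rule.

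*Mlc1* ran the other way. It was at 16.6, 33.1 and 26.3 CPM in WT and at 33.7, 31.2 and 40.9 CPM in KIN. The groups overlapped, since KIN replicate 2 lay below WT replicate 2, and the log2 fold change of 0.46 (SE 0.23) did not meet the call rule. The value stayed above 0 in all 14 alternatives with a fold change, between 0.23 and 0.69 when single libraries were left out.

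A ratio of counts within one library is free of any scaling between libraries. With *Mlc1*, picked as the denominator after its values were seen, the count of *Agt* was 2.38, 1.73 and 1.76 times that of *Mlc1* in the WT astrocyte libraries and 0.274, 0.328 and 0.308 times in the KIN libraries. *Agt* was thus the more counted of the pair in every WT library and the less counted in every KIN library. For *Htra1* the ratio was 4.64, 3.26 and 2.89 in WT and 0.846, 0.869 and 0.832 in KIN. For *Acsbg1*, with the smallest difference in level, it was 2.19, 1.19 and 1.17 in WT and 0.855, 0.951 and 0.682 in KIN. In all 9 genes the KIN ratios lay below the WT ratios without overlap, a direction that the choice of numerators and denominator favoured and from which nothing is read.

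**Figure D3:**
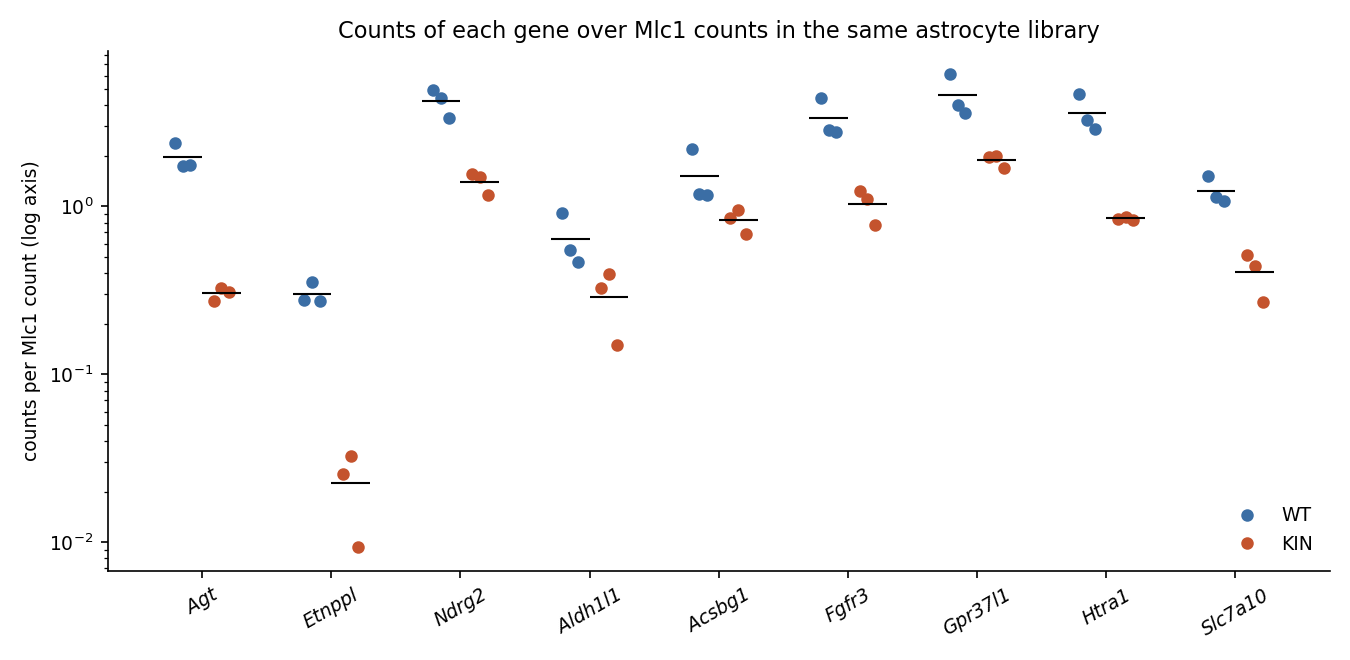
Counts of 9 of the genes divided by the Mlc1 counts of the same astrocyte library, on a log axis; points are the 3 WT and 3 KIN libraries and the bar is their mean. Agt has a mean ratio of 1.96 in WT and of 0.303 in KIN, and in each gene the KIN points lie below the WT points.

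All 10 genes had their highest WT level in WT replicate 2. That library also had the highest summed level of the other 16 astrocyte markers (1804 CPM against 1185 and 1261 CPM) and the lowest summed level of neuron markers (52.6 CPM against 162.8 and 133.9 CPM) of the WT astrocyte libraries. Without it 4 of the 10 genes met the call rule, *Agt*, *Etnppl*, *Htra1* and *Fgfr3*, and the median log2 fold change of the 10 was -0.87. The KIN libraries were more alike, with summed levels of the 10 genes of 288.9, 269.1 and 282.4 CPM.

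The 10 genes had 63 transcript entries between them, all annotated in GENCODE vM39. *Agt* had 2, both coding, with 52.4% and 47.6% of its astrocyte counts and log2 ratios of KIN to WT means of -2.25 and -2.06. *Fgfr3* had 17 entries, 10 of which passed the filter, with log2 ratios from -2.16 to -0.81. *Gpr37l1* had a single entry, and in *Acsbg1* 1 entry held 94.2% of the counts. In *Slc7a10* an entry annotated as a target of nonsense-mediated decay had a log2 ratio of -1.70 while the main coding entry, with 46.7% of the counts, had -0.94. In *Mlc1* both coding entries were above 0, at 0.52 and 0.42. All 38 entries of the other 9 genes that passed the filter had a lower mean in KIN, among them an *Etnppl* entry with a retained intron that had no count in KIN. Reads that fit several transcripts cannot be assigned to one of them, so these splits are uncertain.

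Counting ignored the strand, and exons of 5 of the genes overlap those of a neighbour. *Idh3a*, opposite *Acsbg1*, had a log2 fold change of 0.60 (SE 0.35, edgeR adjusted p = 0.286). *Lrp3*, opposite *Slc7a10*, had -0.71 (SE 0.25, edgeR adjusted p = 0.0513). *Cog2*, opposite *Agt*, had 22 counts in WT and 21 in KIN over 3 libraries each, and *Capn9*, also opposite *Agt*, 2 and 0. The overlaps of *Aldh1l1* and *Fgfr3* are with genes whose names are not among those counted.

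Other markers, in lists chosen with earlier results of these data known, moved with the genotype in the same libraries. Among 16 further astrocyte markers 8 fell and 0 rose (edgeR, adjusted over all genes), with a median log2 fold change of -1.01. Without WT replicate 2, 5 fell and 2 rose. Over all genes tested 6.42% were called lower and 2.43% higher. As the lists were so chosen, nothing is read from the difference. *Slc1a2*, the main glutamate transporter, fell by 1.34 on the log2 scale (SE 0.22, edgeR adjusted p = 2.96e-05), *Slc6a11*, a GABA transporter, fell by 1.50 (SE 0.22, edgeR adjusted p = 3.61e-06), and *Aldoc*, an astrocyte glycolytic enzyme, had -0.98 (SE 0.22) and did not pass the fold limit. *Aldoc* was called lower at a mean of at least 10 counts (-1.01), on the most abundant transcript alone (-1.04), and without WT replicate 1 (-1.13), WT replicate 3 (-1.07) or KIN replicate 3 (-1.04). *Atp1b2*, whose protein carries the epitope of the astrocyte beads, fell by 1.05 (SE 0.22, edgeR adjusted p = 0.000621), a call lost without WT replicate 2 (-0.89) or KIN replicate 2 (-0.97). *Clu*, which encodes clusterin, had -0.06 (SE 0.22). *S100b* and *Gfap*, named after their values were seen, had 0.93 (SE 0.22) and 0.80 (SE 0.26), with KIN libraries above all WT libraries and within the fold limit, and both were called higher without WT replicate 2 (1.19 and 1.28). *Cbs*, likewise named afterwards, had -0.77 and was called lower without WT replicate 1 (-1.04) or KIN replicate 1 (-1.09).

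Of the 12 neuron markers 10 fell and 0 rose in the astrocyte fraction, with a median of -2.06. Beside this, 6.42% of all genes tested were called lower and 2.43% higher. With DESeq2 4 of the 10 calls were kept, *Snap25*, *Syt1*, *Nefm* and *Eno2*, and 2 had no adjusted p, and 6 markers fell without WT replicate 1 or without WT replicate 3. The 12 had summed levels of 52.6 to 162.8 CPM in WT and 38.4 to 62.4 CPM in KIN. *Snap25*, a synaptic vesicle fusion protein, fell by 2.54 (SE 0.35, edgeR adjusted p = 1.68e-06) and *Slc17a7*, a vesicular glutamate transporter, fell by 2.94 (SE 0.47, edgeR adjusted p = 1.87e-05, a call lost with DESeq2), while *Map2* had -0.23 and *Tubb3* 0.92, neither called. *Tubb3* was called higher without WT replicate 3 (1.15) and without KIN replicate 1 (1.19), and *Map2* lower on the most abundant transcript alone (-2.53). Of 10 oligodendrocyte markers 2 rose, *Mog* by 1.27 (SE 0.23, edgeR adjusted p = 0.000108) and *Cnp* by 1.12 (SE 0.22, edgeR adjusted p = 0.000317), while *Mbp* had 0.30, and 0 fell. *Pdgfra*, a marker of oligodendrocyte precursors named after its values were seen, had 8, 1 and 6 counts in WT and 0, 1 and 0 in KIN (edgeR adjusted p = 0.0591), and was called lower without a filter, with a replicate block, without WT replicate 2 and without KIN replicate 2. *Mag*, a myelin glycoprotein also named afterwards, had 0.78 and was called higher without WT replicate 2 (1.02). Their summed level was 439.2, 677 and 451 CPM in WT and 774.9 to 783.3 CPM in KIN. Of 7 ependymal and choroid plexus markers 1 rose, *Folr1*, by 1.92 (SE 0.45, edgeR adjusted p = 0.00264). It had 5, 3 and 4 counts in WT and 14, 13 and 14 in KIN. Its call was not kept at a mean of at least 10 counts or on the most abundant transcript alone. *Ttr*, *Ccdc153* and *Foxj1* had 0.93, 0.88 and 0.88 without reaching the fold limit. The summed level of the 7 was 108.7 to 127.2 CPM in WT and 162.7 to 268.2 CPM in KIN. *Ttr* was called higher without KIN replicate 2 (1.18) and *Ccdc153* on the most abundant transcript alone (1.22). *Kl*, named after its values were seen, had the opposite sign at -0.81 (SE 0.34, edgeR adjusted p = 0.111), its KIN libraries all below the WT libraries, and was called lower without WT replicate 2 (-1.05). Of 7 endothelial and mural markers tested none was called, *Pecam1* having 0.38, *Cldn5* -0.56 and *Pdgfrb* -0.23, with sums of 56.5 to 62.6 CPM in WT and 50.5 to 82.9 CPM in KIN. Microglia markers summed to at most 12.5 CPM, and 1 of the 3 tested met the call rule, *Itgam*. It was at 1.98 CPM in WT and 0.223 CPM in KIN (edgeR adjusted p = 0.0467), a call lost without any 1 of the KIN libraries. Nor was it kept without WT replicate 1 or 3, at a mean of at least 10 counts or on the most abundant transcript alone. DESeq2 gave it no adjusted p. *Cx3cr1* had -1.27 (edgeR adjusted p = 0.0509) and *Csf1r* -0.03. *Cx3cr1* was called lower with a replicate block (-1.31), with DESeq2 size factors (-1.28) and without WT replicate 2 (-1.51). The part of these other cells' transcripts in the values of the 10 genes was not tested.

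**Figure D4:**
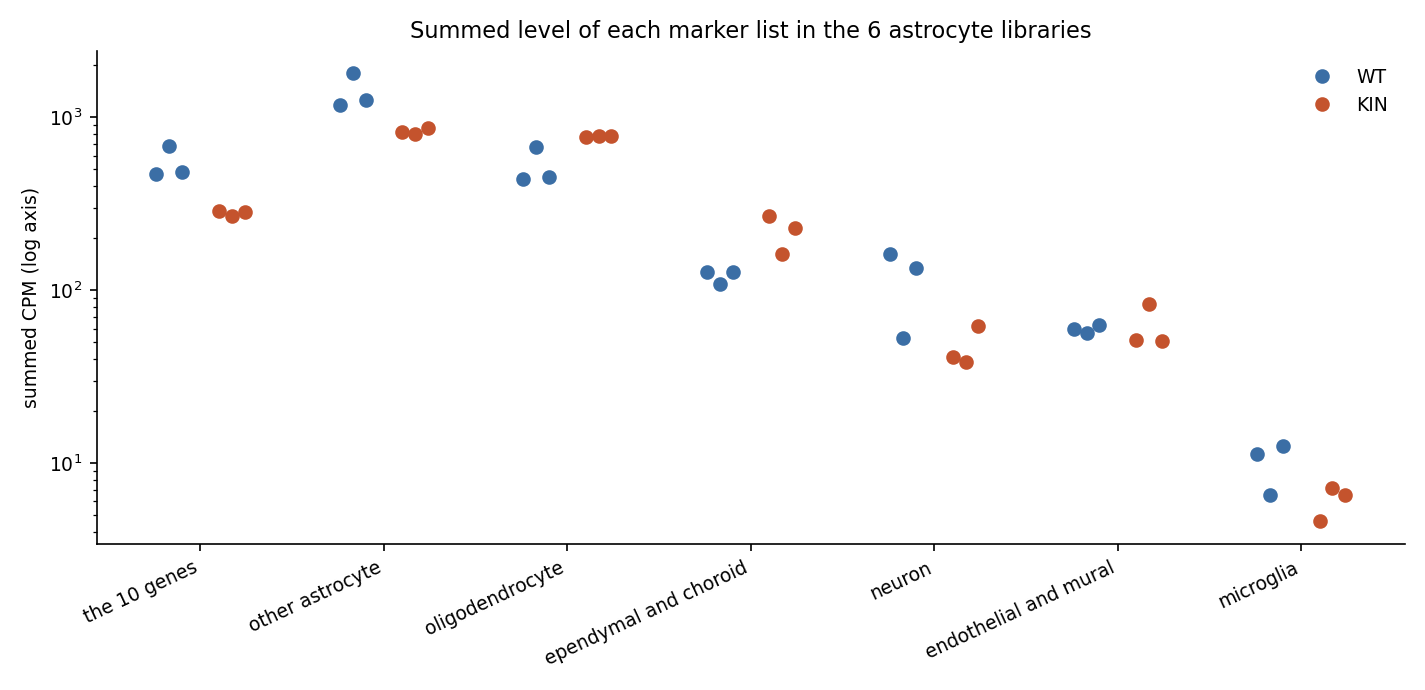
Summed CPM of the 10 genes and of each marker list in the 6 astrocyte libraries, on a log axis; points are libraries, WT left and KIN right. The 10 genes and the other astrocyte markers are lower in all 3 KIN libraries, and oligodendrocyte and ependymal markers are higher in all 3.

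The surroundings of each gene in its pathway were read from 9 lists. Over their 136 genes, 108 of them tested, 7 fell and 1 rose, so 6.48% were called lower against 6.42% of all genes tested, and the median log2 fold change was -0.04. With DESeq2 in place of edgeR 4 of them were called lower, *Tyms*, *Fgf9* and *Atp1b1* no longer being so.

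**Figure D5:**
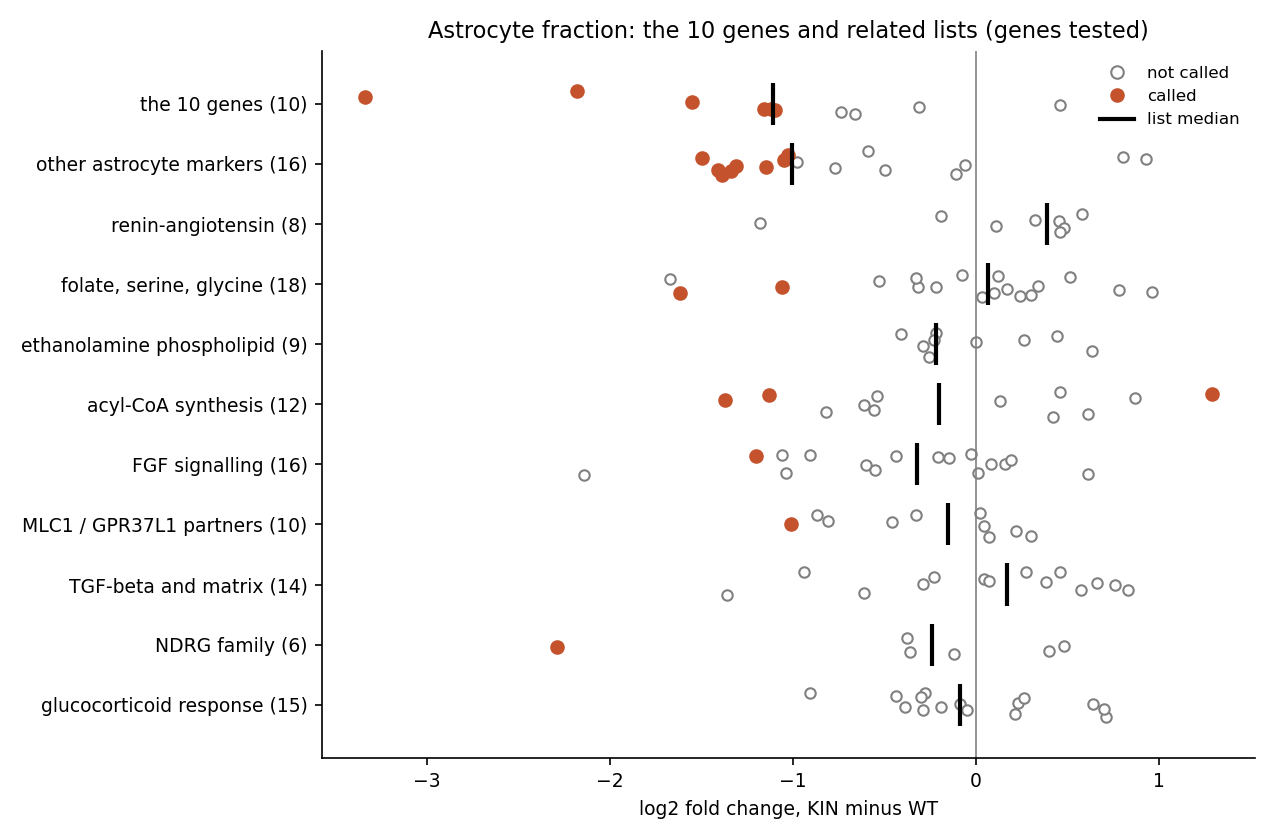
Log2 fold changes, KIN minus WT, in the astrocyte fraction for the 10 genes, 16 other astrocyte markers and the tested genes of 9 pathway lists; each point is a gene, filled where called, and the black bar is the list median. The bar lies at -1.11 for the 10 genes and at -1.01 for the other astrocyte markers, and between -0.32 and 0.38 for the pathway lists.

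Around *Agt*, 8 of 16 renin-angiotensin genes passed the filter and none was called, with a median of 0.38. *Mme* (neprilysin) had -0.19 (SE 0.29, edgeR adjusted p = 0.752) and *Lnpep*, the insulin-regulated aminopeptidase that binds angiotensin IV, 0.11 (SE 0.30, edgeR adjusted p = 0.877). *Agtrap*, which binds the type 1 receptor, had 0.45 and *Atp6ap2*, the (pro)renin receptor, 0.58. The renin gene *Ren1* had no count in any astrocyte library, and the angiotensin receptor genes did not pass the filter. Of 17 glucocorticoid-response genes 15 were tested and none was called, *Mt1* having -0.44, *Mt2* -0.39, *Hif3a* 0.64 and *Per1* -0.05; without WT replicate 3, *Tsc22d3*, named after its values were seen, was called lower (-1.16).

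Around *Aldh1l1* and *Slc7a10*, 18 of 22 folate, serine and glycine genes were tested, 2 fell and 0 rose, with a median of 0.06. *Tyms*, thymidylate synthase, fell by 1.62 (SE 0.40, edgeR adjusted p = 0.00453), from 6.12 to 1.98 CPM, a call lost without WT replicate 3 (-1.35). *Slc6a9*, the astrocytic glycine transporter GlyT1, fell by 1.06 (SE 0.23, edgeR adjusted p = 0.00126), from 30.6 to 14.5 CPM, beside -1.10 in *Slc7a10*. That call was lost without WT replicate 2 (-0.88), without KIN replicate 2 (-0.90) or on the most abundant transcript alone (-0.85). *Psat1*, an enzyme of serine synthesis named after its values were seen, had 0.96 and was called higher on the most abundant transcript alone (1.24), without KIN replicate 1 (1.10) and without KIN replicate 3 (1.03).

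Around *Acsbg1*, 12 of 14 genes of acyl-CoA synthesis and fatty acid uptake were tested. The synthetase *Acsl3* fell by 1.37 (SE 0.24, edgeR adjusted p = 6.62e-05), *Acsl6* fell by 1.13 (SE 0.23, edgeR adjusted p = 0.0004), and the thioesterase *Acot1* rose by 1.29 (SE 0.33, edgeR adjusted p = 0.00552). *Acsl6* was not called without WT replicate 2 (-0.92), nor *Acot1* without WT replicate 1 (1.02) or with DESeq2 (1.30). Around *Etnppl*, none of 9 tested genes of ethanolamine phospholipid metabolism was called. *Pcyt2*, a transferase of phosphatidylethanolamine synthesis, had 0.0 (SE 0.26), *Etnk1*, an ethanolamine kinase, -0.29, *Pisd*, phosphatidylserine decarboxylase, -0.22, and *Phykpl*, the closest relative of *Etnppl*, 0.44 (SE 0.31, edgeR adjusted p = 0.40).

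Around *Fgfr3*, 16 of 21 genes of FGF signalling were tested and 1 fell, the ligand *Fgf9*, by 1.20 (SE 0.37, edgeR adjusted p = 0.0232), while the receptors *Fgfr1* and *Fgfr2* had 0.08 and 0.16 and the syndecan *Sdc4* -0.60. The call of *Fgf9* was lost without WT replicate 3 (-1.12) or KIN replicate 3 (-0.92), and in the fit of all 18 libraries (-1.18). Around *Mlc1* and *Gpr37l1*, 1 of 10 tested partner genes fell, the sodium pump subunit *Atp1b1*, by 1.01 (SE 0.30, edgeR adjusted p = 0.0194), with overlapping groups. Its call was lost without WT replicate 1 (-0.79), WT replicate 3 (-0.81), KIN replicate 1 (-0.93) or KIN replicate 2 (-0.91). The fit of all 18 libraries lost it too (-1.0). *Hepacam*, the adhesion protein that chaperones MLC1, had 0.02 (SE 0.22), *Psap*, which encodes prosaposin, 0.30, and *Ptch1*, a Hedgehog receptor, -0.87 within the fold limit, though *Ptch1* was called lower without WT replicate 3 (-1.05).

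Around *Htra1*, none of 14 tested TGF-beta and matrix genes was called. *Ltbp3* had -0.29, *Smad7* 0.07 and *Bmpr1a* -0.23. Named after their values were seen, *Smad3*, a transducer of TGF-beta signals, had -1.36 (SE 0.48, edgeR adjusted p = 0.0533) and *Ltbp1*, a latent TGF-beta binding protein, -0.94, both with overlapping groups. *Smad3* was called lower with a replicate block (-1.42), on the most abundant transcript alone (-1.43), without WT replicate 2 (-1.62) and without KIN replicate 3 (-2.14). *Tgfb1* is left aside, since all but a negligible share of its counts came from 1 of its 5 entries, which is among the most abundant in the libraries. A list of other NDRG family genes with *Nedd4l*, *Sgk1* and *Sgk3* had 6 tested genes. Of these 1 fell, *Ndrg4*, mainly known from neurons, by 2.29 (SE 0.32, edgeR adjusted p = 1.96e-06). *Ndrg1* had 0.48, *Ndrg3* -0.12 and *Nedd4l* -0.36.

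In the microglia and neuron fractions only *Ndrg2* passed the filter, so the other 9 genes were not tested there. Microglia libraries held 14, 5 and 7 counts of it in WT and 4, 3 and 4 in KIN, or 4.16, 2.47 and 2.97 against 1.59, 1.07 and 1.39 CPM. The groups did not overlap, and the log2 fold change was -1.27 (SE 0.51, edgeR adjusted p = 0.276), which did not pass; 1.52% of the 10831 genes tested in microglia were called in either direction. In neurons the counts were 7, 14 and 4 in WT and 13, 13 and 7 in KIN, with overlapping levels, a log2 fold change of -0.45 (SE 0.47, edgeR adjusted p = 0.968) and 0.0739% of 6765 genes called. The neuron value was 0.01 without WT replicate 2, the library with the highest oligodendrocyte and astrocyte marker sums, whose part in it was not tested. With so few counts the 95% interval of the log2 fold change ran from -2.28 to -0.27 in microglia before adjustment and from -1.37 to 0.47 in neurons, so the interval in neurons held both 0 and the astrocyte value of -1.12. Whether the *Ndrg2* difference itself differed between fractions was not tested, since its astrocyte value chose it.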

How the data were processed

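RNA from the 3 fractions was sequenced as 3′ tags after rRNA depletion and polyadenylation (panRNA-Seq, with molecular identifiers). Per the submitters' processing notes, the authors trimmed with cutadapt 4.6, mapped with Bowtie2 2.4.4 to mm39 and counted with HTSeq 2.0.2, without strand. The deposited table holds raw counts per transcript for 116873 entries, 137 of them without a name. Another 36 columns of per-sample values and the authors' DESeq2 fold changes and p-values were not used. Counts were summed by gene name.

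The genes and lists described were chosen with earlier results of these data known. Each fraction was fitted alone with edgeR 4.0.16 (R 4.3.3, TMM, quasi-likelihood test, Benjamini-Hochberg adjustment over all genes with at least 5 counts in at least 2 libraries). The SE is the absolute log2 fold change over the square root of F. List genes were named by call and fold, then by mean CPM; some of those are not reported here. Alternatives were DESeq2 1.42.0, other scalings and filters, a replicate block and leaving out each library. Groups came from the labels, and depth limits precision at low counts. The floors cover counting error only. The intervals given for *Ndrg2* rest on the SE of the edgeR fit, which also takes in the spread between replicates. They use a normal quantile in spite of the few libraries per group. Replicates of a group differed by more than sampling noise.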

Additional observations from a re-analysis of the deposited data

How the results depend on the processing

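For the 10 genes the direction in astrocytes held in every alternative: the 9 lower genes stayed below 0 in all 126 values and *Mlc1* above 0 in all 14. Between 4 and 6 of them met the call rule when single libraries were left out, 4 on the most abundant transcript of each gene (without *Fgfr3* and *Slc7a10*), 7 by adjusted p alone (adding *Gpr37l1*), and 6 with DESeq2, with either scaling, with either filter and in the fit of all 18 libraries. The labels do not say whether same-numbered libraries came from pairs of mice. Correlations of deviations between same-numbered astrocyte libraries were -0.00358, 0.0633 and -0.00758, which cannot decide this with 3 libraries per group. With a replicate block 6 of the 10 met the rule and no call among them changed. In neurons *Ndrg2* reversed to 0.01 without WT replicate 2; over single libraries left out it ranged from -0.73 to 0.01, and in microglia from -1.42 to -1.02, where DESeq2 gave no adjusted p. The count of genes whose astrocyte libraries all lay above all others was 9 under each scaling.

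Over all genes, DESeq2 called 292 lower and 109 higher in astrocytes, against 754 and 285 with edgeR, and 509 were higher by adjusted p alone. With single libraries left out these counts ran from 412 to 1055 lower and from 161 to 472 higher. In microglia DESeq2 called 48 genes, no filter gave 276, a mean of at least 10 counts 94 and single transcripts 77, with 35 to 453 over libraries left out. In neurons the 5 calls became 0 with DESeq2, 28 without a filter, 0 at a mean of at least 10 counts, 25 in the fit of all libraries, 1 with the replicate block and 1 on single transcripts, with 0 to 22 over libraries left out; at an unadjusted p of 0.05, 341 neuron genes passed. Of the 7 pathway genes called lower DESeq2 kept 4, the fit of all 18 libraries 5, and single libraries left out 4 to 6, where 5 to 7 pathway genes were called lower in all. The causes were not tested.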

Other observations

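Among 1649 genes of at least 10 CPM, those whose log2 CPM followed *Agt* most closely over the 6 astrocyte libraries were *Slc4a4*, a bicarbonate cotransporter (Pearson r = 0.994), *Grin2c*, an NMDA receptor subunit (r = 0.992), *Mfge8*, a secreted glycoprotein (r = 0.990), *Abr* (r = 0.989) and *Slc6a11* (r = 0.988). Among those closest to the mean of the 10 genes were *Bcan*, a matrix proteoglycan (r = 0.994), *Acsl3* (r = 0.990), *Itih3* (r = 0.990) and *Slc25a18*, a mitochondrial glutamate carrier (r = 0.985). The 6 points fall into 2 genotypes and share library and scaling, so these values describe the same split again. *Grin2c* stood at 32.9 ± 2.68 CPM in WT and 10.1 ± 1.24 CPM in KIN (SD, n = 3 each).

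Picked after their values were seen, the FGF target genes *Dusp6*, *Etv4* and *Etv5* each had KIN libraries below all WT libraries. The same held in 14.1% of all genes tested. *Dusp6* was at 2.28 CPM in WT and at the floor in all KIN libraries, and *Etv4* and *Etv5* had log2 fold changes of -1.06 and -0.91. None of *Dusp6*, *Etv4* and *Etv5* passed the test, at edgeR adjusted p of 0.056, 0.0665 and 0.0628. *Spry2*, another such target, had 0.01, and *Spry1* and *Spry4* did not pass the filter. *Dusp6* was called lower without WT replicate 2 (edgeR adjusted p = 0.0337). In the folate and serine list the enzyme *Psat1* had 0.96 (edgeR adjusted p = 0.00733), within the fold limit, and *Phgdh* 0.51 (edgeR adjusted p = 0.121), both with KIN libraries above all WT libraries, opposite in sign to *Slc7a10* and *Aldh1l1*.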
